A study of Solanum lycopersicum with 96 samples.

Results

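Seed of the tomato (Solanum lycopersicum) cultivar Moneyberg whose mother plants had received the elicitor Ina in time window 2 was compared with seed of Moneyberg control plants. An elicitor is a compound that switches on or primes plant defence. The labels do not spell out Ina; in work on plant immunity INA usually stands for dichloroisonicotinic acid, a synthetic mimic of salicylic acid signalling. The series asked whether such treatments of the mother leave a mark in the DNA methylation of the seed, measured by whole-genome bisulfite sequencing, in which cytosines without a methyl group are converted and read as thymine. Each of the 2 groups had 12 libraries, 2 for each of 6 replicates, with 10 seeds pooled in an extraction and 6 mother plants behind a treatment. The seed came from batches whose daughter plants had shown improved resilience to pathogens, so the treated batches were not a random choice. Plant age, the length of the time window and the dose of Ina were not given in the sources used here. The other lists used below are from Moneyberg after BABA in time windows 2 and 3 and MeJA in time window 3, and from the cultivar Bolstar as control and after BABA or Ina in time window 2.

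The deposited data are 1 pooled list of genomic regions per group, so no value below carries a replicate error and no test between the groups was possible. The Ina list held 31258 regions and the control list 32856, together 64114 of the 237372 regions in the 8 lists of the series. A region of the Ina list with no base in the control list was called gained, and a control region with no base in the Ina list was called lost. By this rule 834 Ina regions were gained, 2.67% of that list, and 1441 control regions were lost, 4.39% of theirs. Regions carry names starting with HYPO and a whole-number score, taken here from its values to count cytosine sites. What the score counts is not stated, so the sites given below for a region are its score, and sites per kb its score per kb. Whether listing means low methylation is not stated, so gained and lost refer to presence in a list and give no direction of methylation. The interval printed after a share is its 95% Wilson interval. It treats each region as 1 count and says nothing about variation between plants.

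Plants methylate cytosines in the CG, CHG and CHH contexts, and the methyl marks are densest over transposable elements in the heterochromatin that fills the interior of tomato chromosomes. Gene-rich euchromatin lies towards the chromosome ends. Methylation in CG and CHG is copied at each cell division by maintenance methyltransferases, while small RNAs direct new methylation. Marks that pass through seed are one proposed carrier of defence priming between generations.

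Both lists covered almost the same amount of sequence, 451 Mb each, or 55.9% of the 12 chromosomes under Ina and 55.8% in the control. The lists had 435.5 Mb in common, which left 15.2 Mb in the Ina list alone and 15.0 Mb in the control list alone. The Ina list held its sequence in fewer and longer regions, with a median length of 10.1 kb against 9.63 kb. The median score was 161 against 154 and the lowest score 68 against 65. The score per kb of listed sequence was 17.3 in each.

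Most regions were the same in both lists. Regions that met exactly 1 region of the other list, and were met by no further one, formed 24039 pairs. In 16987 of these pairs start and end were identical to the base, which is 54.3% of the Ina list and 51.7% of the control list. A further 2991 pairs differed in the start alone, 3029 in the end alone and 1032 in both. Neighbouring control regions were 1 region in the Ina list (merged) in 2041 places, and a control region was several Ina regions (split) in 1280 places. In 766 more places several regions of each list overlapped one another in a chain, with a median of 4 regions in a chain.

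Where the interval was identical, the score was nearly always the same. If the score counts cytosine sites, such intervals contain the same sites, so equal scores follow largely from the match itself. Of the 16987 identical intervals 94.1% had exactly the same score in both lists. Where the scores differed, 595 were higher under Ina and 399 lower, a share of 59.9% higher (56.8% to 62.9%), and 740 of the differences were of 1. Summed over all identical intervals the Ina scores were nevertheless 67 lower, and the largest single differences were 18 higher and 26 lower. The other 3 Moneyberg treatments, which share the same control list, gave 682 higher and 424 lower for BABA in time window 2, 624 and 434 for BABA in time window 3, and 643 and 426 for MeJA in time window 3. The read depth behind the scores is unknown, and its part in these differences was not tested.

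Whole regions, moved ends and gaps contributed unequally to the differing bases. Of the 15.2 Mb listed under Ina alone, 5.32 Mb (34.9%) lay in gained regions, 8.63 Mb (56.6%) in ends that reached further than in the control and 1.29 Mb (8.5%) in closed gaps. Of the 15.0 Mb in the control list alone, 7.94 Mb (52.9%) lay in lost regions, 6.17 Mb (41.2%) in ends that reached further than under Ina and 0.890 Mb (5.9%) in gaps that had opened. Ina thus had less sequence in whole regions of its own and more in extended ends, and these amounts nearly cancelled. On chromosome 9 whole regions made up most of the difference, 2.61 Mb of 4.36 Mb under Ina alone and 3.24 Mb of 4.96 Mb in the control alone.

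**Figure D1:**
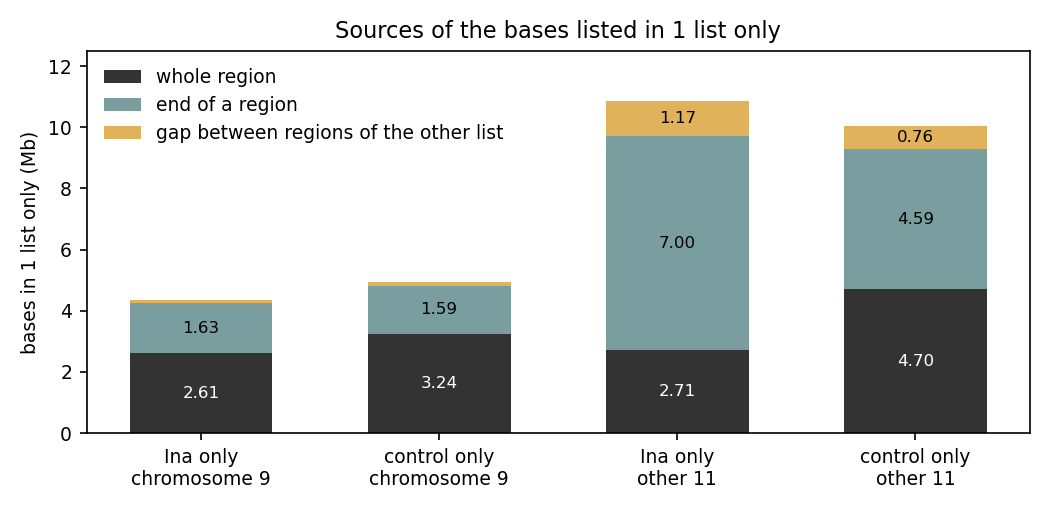
Bases found in the Ina list alone or the control list alone, in Mb, on chromosome 9 and on the other 11 chromosomes, divided into whole gained or lost regions, ends of regions and gaps between regions of the other list. On the other 11 chromosomes ends gave 7.0 Mb under Ina and 4.59 Mb in the control, while whole regions gave 2.71 Mb and 4.70 Mb.

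Chromosome 9 differed from the rest in how many regions appeared or disappeared. On it 377 of 2083 Ina regions were gained, 18.1% (16.5% to 19.8%), and 502 of 2252 control regions were lost, 22.3% (20.6% to 24.1%). On the other 11 chromosomes the gained share ran from 0.946% on chromosome 7 to 2.23% on chromosome 12, and the lost share from 2.58% on chromosome 10 to 3.81% on chromosome 1. Every chromosome lost more regions than it gained. Chromosome 12 had the most even balance, with 70 gained and 89 lost, and chromosome 4 the most uneven, with 28 and 85. Without chromosome 9, 457 regions (1.57%) were gained and 939 (3.07%) lost. The listed share in bins of 1 Mb, given below, also varied more on chromosome 9 in Moneyberg pairs without Ina.

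**Figure D2:**
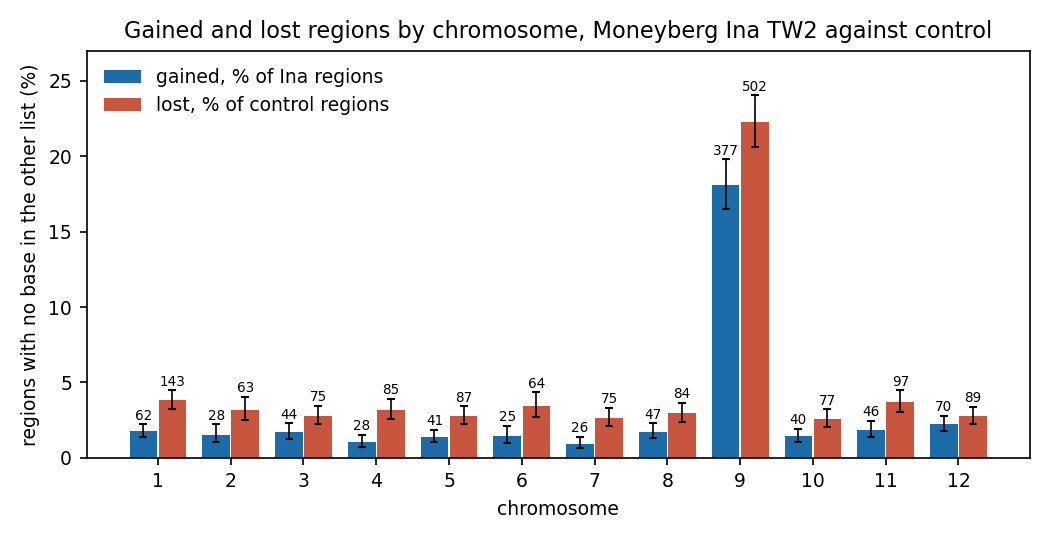
Gained regions as a percentage of the Ina regions and lost regions as a percentage of the control regions of each chromosome; bars are shares, whiskers 95% Wilson intervals, and the numbers above the bars are counts of regions. Chromosome 9 stands at 18.1% gained and 22.3% lost, and the other 11 chromosomes lie at 3.81% or below.

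The difference in listed sequence had opposite signs on chromosome 9 and on the sum of the others. The Ina list held 592 kb less than the control list on chromosome 9, where 16.3 Mb and 16.9 Mb were listed, 22.4% and 23.2% of its length. It held 833 kb more on the other 11 chromosomes together, of which 59.2% was listed under Ina and 59.1% in the control. Among these, 7 had more sequence under Ina, led by chromosome 12 with 266 kb, and 4 had less, led by chromosome 4 with 165 kb. Chromosome 6 was nearly even, at 1.6 kb less under Ina. Overlap by bases, the Jaccard index, was 0.562 on chromosome 9 and 0.942 to 0.961 on the others.

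Regions on chromosome 9 that were kept had also moved their edges more often. Identical intervals made up 22.4% of its Ina regions, against 52.5% to 59.6% on the other chromosomes. Of the ends of paired regions 47.8% had moved on chromosome 9 and 15.0% elsewhere. The score of identical intervals was equal in 76.8% of 466 cases on chromosome 9 and in 94.6% of 16521 elsewhere. Splits and merges took smaller shares there, with 2.9% of its control regions split against 4.0% elsewhere and 9.5% merged against 13.6%. Chains of several regions of each list took larger ones, with 7.1% of its control regions against 5.1% and 7.5% of its Ina regions against 5.3%. Control regions that were not lost had a median length of 6.86 kb on chromosome 9 and 10.3 kb elsewhere. The shares of splits, merges and chains were not matched for length.

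Gained and lost shares were lower among regions of larger score. Of control regions with a score of 65 to 67, below the lowest score in the Ina list, 231 of 277 were lost, 83.4% (78.6% to 87.3%). The lost share was 19.1% at scores of 68 to 79, 6.6% at 80 to 99, 2.3% at 100 to below 150 and 0.221% at 150 to below 300. The gained share went from 9.3% over 7.6% and 2.8% to 0.182% in the same classes. None of the 7897 Ina regions and 7785 control regions with a score of 300 or more was gained or lost, which the Wilson interval limits to 0.049% in each list.

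From a score of 68 to below 300 the shares of chromosome 9 were also higher within each size class. Among the smallest control regions, of 65 to 67, 9 of 12 were lost on chromosome 9 (75%) and 222 of 265 elsewhere (83.8%). At scores of 80 to 99 its lost share was 27.5% (24.2% to 31.1%) against 3.4% (2.9% to 4.0%) elsewhere. At 100 to below 150 the lost share was 16.4% (13.7% to 19.4%) against 0.963% (0.755% to 1.23%). The gained share at 100 to below 150 was 15.6% (13% to 18.5%) against 1.5% (1.2% to 1.8%). Of the 16 gained regions with a score of 150 or more 14 were on chromosome 9, and of the 20 lost regions of that size 18 were.

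**Figure D3:**
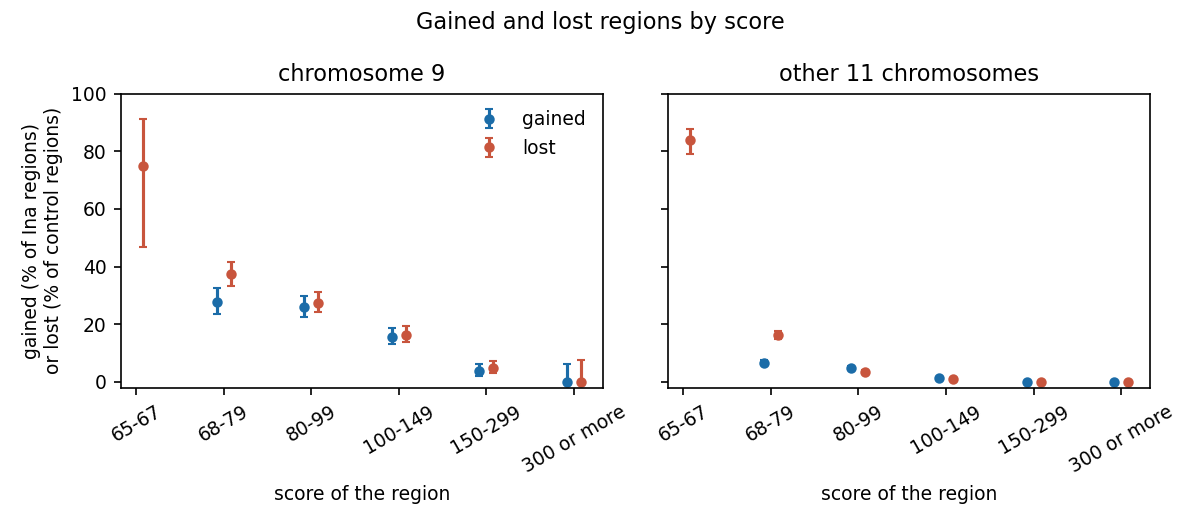
Share of Ina regions gained and of control regions lost, in percent, by score class, on chromosome 9 and on the other 11 chromosomes; points are shares and whiskers 95% Wilson intervals. Shares are lower in each larger class, and at scores of 80 to 99 the lost share is 27.5% on chromosome 9 and 3.4% elsewhere.

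Gained regions were small, with a median length of 6.23 kb and an interquartile range of 4.57 to 7.94 kb, and lost regions smaller, with a median of 5.24 kb (3.94 to 6.67 kb). The median score of gained regions was 86, and 617 of the 834 scored below 100. That of lost regions was 72, and 1250 of the 1441 scored below 100. Gained regions held fewer sites per kb than the other Ina regions, with medians of 14.4 and 16.1. The values for lost and other control regions were 14.6 and 16.1. The density was also read within size classes: among regions of 68 to 79 gained regions had 14.7 sites per kb and the other Ina regions 14.9, and among those of 80 to 99 the values were 13.9 and 15.2. In the second class gained regions of chromosome 9 had 13.2 against 15.2, and those elsewhere 14.9 against 15.2. Lost regions of 68 to 79 had 14.9 sites per kb against 14.8 in the other control regions, and those of 80 to 99 had 14.1 against 15.3. In the smaller class lost regions were sparser on chromosome 9, with 13.9 against 15.2. They were not sparser elsewhere, with 15.2 against 14.8.

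Counts by length followed those by score. As 1 shared base is enough to touch, a longer region can touch the other list more easily. How far this shapes the shares by length and score was not tested. Of control regions under 5 kb 13.3% were lost, of those of 5 to 10 kb 5.9% and of those of 10 to 20 kb 0.797%, and none of the 5587 regions of 20 to 50 kb and 692 longer ones was lost. Splits went the other way, from 0.263% of regions under 5 kb to 22.5% of the 692 regions of 50 kb or more. Identical intervals were most frequent at 5 to 10 kb, with 56.0% of control regions, and least frequent at 50 kb or more, with 31.5%. Among regions that stayed in pairs the share with a moved end was 28.3% to 30.6% in every length class.

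The lists do not start at the same score, so the comparison was repeated with regions of 68 or more in both. The 277 smaller control regions then drop out, 46 of which had touched an Ina region. Gained regions numbered 861 and lost regions 1210, or 2.75% and 3.71% of the regions compared. On chromosome 9 the counts were 380 and 493, and on the other 11 chromosomes 481 and 717. The surplus of lost over gained regions thus remained at this minimum, at a ratio of gained to lost of 0.712 in place of 0.579. It turned at a minimum of 85, the highest lower limit among the 8 lists, where 975 regions were gained and 682 lost. With the same minimum but the other list kept whole, 446 were gained and 386 lost. Of these, the other 11 chromosomes had 229 gained and 146 lost, while chromosome 9 had fewer gained (217) than lost (240).

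Position along the chromosome had opposite profiles on chromosome 9 and elsewhere. On the other 11 chromosomes the lost share was 8.4% (7.2% to 9.8%) in the first 5 Mb, 2.5% (2.3% to 2.7%) in the interior and 9.0% (7.4% to 10.9%) in the last 5 Mb. The gained shares were 3.7%, 1.3% and 5.0%. On chromosome 9 the shares were lowest at the ends. In the last 10% of its length 3 of 153 Ina regions were gained, 1.96%, and 20 of 172 control regions were lost, 11.6%. From 60% to 70% of its length 70 of 228 were gained, 30.7%, and from 70% to 80% 73 of 232 were lost, 31.5%.

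Regions at the ends were smaller, with median Ina scores of 109 and 96 in the first and last 5 Mb against 171 in the interior, on all 12 chromosomes, so the position was also read within size classes. At scores of 68 to 79 the lost share on the other 11 chromosomes was 20.9% (17.9% to 24.1%) at the ends and 14.9% (13.6% to 16.4%) in the interior. On chromosome 9 it was 20.5% (13% to 30.8%) at the ends and 40.4% (35.9% to 45.0%) in the interior. At 80 to 99 the ends had 11.1% (5.5% to 21.2%) on chromosome 9 and 5.0% (3.6% to 6.9%) elsewhere, and the interiors 29.3% (25.7% to 33.2%) and 3.1% (2.6% to 3.7%). In both classes the interval of chromosome 9 overlapped that of the other chromosomes at the ends and lay above it in the interior. At 100 to below 150 the lost share of the other 11 chromosomes was 1.4% (0.801% to 2.5%) at the ends and 0.902% (0.690% to 1.2%) in the interior, with overlapping intervals, and their gained share was 1.3% and 1.5%.

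**Figure D4:**
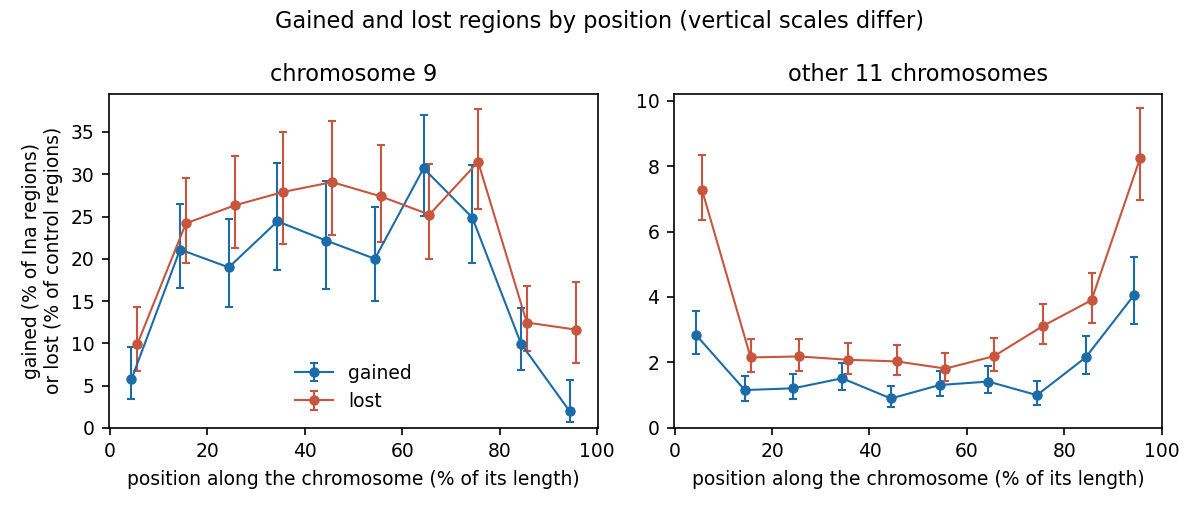
Gained share of Ina regions and lost share of control regions, in percent, by steps of 10% of chromosome length, on chromosome 9 and on the other 11 chromosomes, with separate vertical scales; whiskers are 95% Wilson intervals. Chromosome 9 is highest in its interior, at up to 31.5% lost, and the other chromosomes are highest in the first and last 10%, at 7.3% and 8.3% lost.

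Gained regions stood nearer to listed sequence on the other chromosomes than on chromosome 9. Less of chromosome 9 was listed, 23.2% in the control against 59.1% elsewhere, and how far this sets the distances was not tested. On the 11 chromosomes other than chromosome 9 the median distance from a gained region to the nearest control region was 1.42 kb, and 326 of 457 (71.3%) lay within 5 kb. On chromosome 9 the median was 6.26 kb and 167 of 377 (44.3%) lay within 5 kb. Lost regions stood 2.67 kb from the nearest Ina region elsewhere and 6.52 kb on chromosome 9. The control gap that held a gained region was 18.5 kb wide elsewhere and 44.1 kb wide on chromosome 9, as medians. The gap between neighbouring regions had a median of 2551 bases over the whole control list and 2665 bases over the Ina list. Of all gained regions, 23 lay 50 kb or more from any control region, and 68 lost regions lay that far from any Ina region.

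The largest gained region by score lay on chromosome 9 from 49977290 to 49998712, with 21.4 kb and 255 sites, 46.6 kb from the nearest control region. All other 6 lists held part of it, from 12.3 kb under BABA in time window 3 to 21.2 kb in the Bolstar control. It belongs to the 1 Mb bin with the largest surplus of listed share under Ina, from 49 to 50 Mb, where 43.7% was listed under Ina and 30.6% in the control. The other 6 lists held 39.3% to 46.1% of that bin, so the Moneyberg control was the lowest of all 8. Choosing the bin for its surplus over that control favours such a rank. The bin had 15 gained and 5 lost regions.

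A further pair of large gained regions stood close together on chromosome 9, from 40035335 to 40051778 with 196 sites and from 40070884 to 40093308 with 229 sites. Bolstar control held 15.3 kb of the 16.4 kb of the first and 21.8 kb of the 22.4 kb of the second. The region from 45243480 to 45254027 on chromosome 9, with 178 sites, was less widely listed. It was absent from MeJA in time window 3, Bolstar control and Bolstar Ina, and 9.04 kb of its 10.5 kb was in Bolstar BABA.

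Outside chromosome 9 the top gained region lay on chromosome 12 from 16077825 to 16087710, with 9.89 kb and 180 sites. Of the other 6 lists 5 covered it completely, and that of BABA in time window 2 held 8.53 kb of it. The next, on chromosome 1 from 18869261 to 18873122, packed 170 sites into 3.86 kb, or 44.0 per kb. On chromosome 5 a gained region from 65845938 to 65851935, with 133 sites at 98.7% of the chromosome's length, had a counterpart in 1 other list alone, 5.07 kb under BABA in time window 3. Among the 10 top gained regions outside chromosome 9, 8 were touched by all other 6 lists, against 74 of all 457 gained there (16.2%), so these large regions do not stand for the rest.

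Top lost regions were less uniform. The largest lay on chromosome 9 from 16940798 to 16947998, with 7.20 kb and 221 sites, and every other list held between 1.83 kb and 6.95 kb of it. Next came the region from 48778557 to 48788938, with 10.4 kb and 216 sites, which Bolstar BABA lacked as well. Outside chromosome 9 the first was on chromosome 8 from 45929432 to 45936100 with 168 sites, 48 bases (0.048 kb) from an Ina region. A control region on chromosome 1 from 10535784 to 10546712, with 162 sites, was whole in the other 3 Moneyberg treatments and 0.116 kb from an Ina region. On chromosome 7 the region from 59898301 to 59908457, with 135 sites, stood 30.8 kb from the nearest Ina region and was whole in BABA in time window 3 and all 3 Bolstar lists. The region on chromosome 8 from 16681829 to 16692923, with 123 sites, was held by no other Moneyberg list and by Bolstar Ina with 7.54 kb. Among the 10 top lost regions outside chromosome 9, 3 were touched by all other 6 lists, against 59 of all 939 lost there (6.3%).

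Moved ends tended to reach outward under Ina. Of 48078 ends of paired regions 8084 (16.8%) had moved, 4504 outward and 3580 inward, which is 55.7% outward (54.6% to 56.8%). The outward share was 56.1% at starts and 55.4% at ends. Outward moves had a median of 724 bases and inward moves 532 bases. Together they added 6.70 Mb and removed 4.70 Mb, a net of 2000 kb (1999.7 kb). Short moves were balanced, with 770 outward and 770 inward at 100 bases or less, and the surplus came from longer ones, with 1251 outward and 897 inward at 2 kb or more. On chromosome 9 the moves were almost even, at 643 outward and 610 inward. Of 1032 regions that moved both ends, 258 grew at both, 193 shrank at both and 581 shifted along the chromosome.

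**Figure D5:**
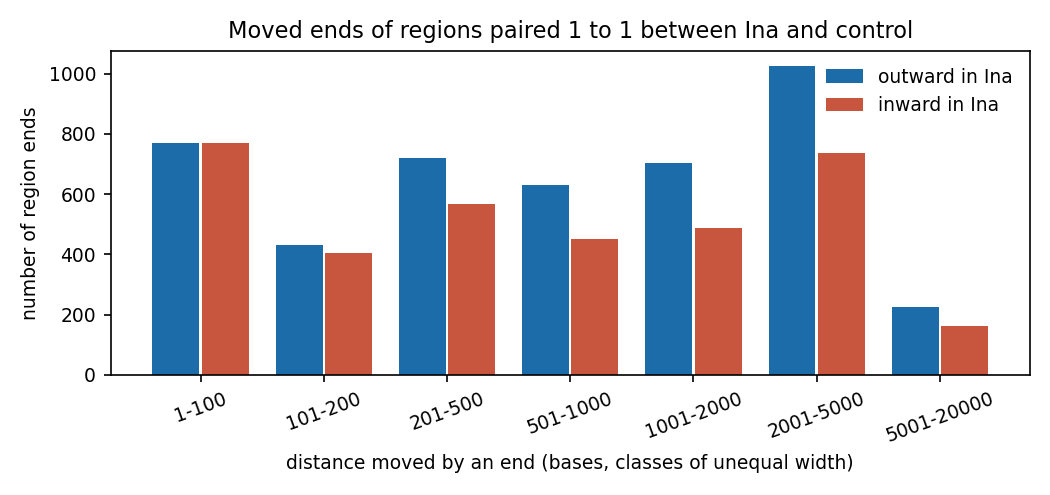
Number of region ends that reached outward or inward under Ina relative to the paired control region, by distance moved in bases, over classes of unequal width. Counts are equal at 100 bases or less, 770 each, and outward moves lead in every longer class, with 1025 against 735 above 2 kb and up to 5 kb.

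The largest outward move was on chromosome 11, where a control region from 26186112 to 26194360 ended 13.3 kb later under Ina, at 26207632, and its score went from 110 to 210. On chromosome 2 a region starting at 21467929 in the control started 13.2 kb earlier under Ina, at 21454739, in the bin from 21 to 22 Mb. That bin had a listed share of 86.3% under Ina, the highest of the 8 lists, and 81.4% in the control, the lowest. It was named for its large rise from control to Ina, a choice that favours such ranks. The largest inward move was on chromosome 9, where a region from 52265367 to 52282020 ended 13.8 kb earlier under Ina and its score went from 196 to 133. Of the 5 largest inward moves 4 were on chromosome 9, and of the 5 largest outward moves 1 was.

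Joined and divided regions turned on short gaps. The control gaps closed in the Ina list had a median of 154 bases, and 92.7% of the 3289 measured 1 kb or less. The gaps found in the Ina list alone had a median of 161 bases, with 92.4% of 2298 at 1 kb or less. All gaps of the control list had a median of 2551 bases. Of control gaps of 1 kb or less 27.6% were closed in the Ina list, and of Ina gaps that short 20.8% were closed in the control. At 100 bases or less the shares were 44.2% and 34.9%. Joining regions 1000 bases or less apart within each list left 896 merges and 630 splits.

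The longest regions show how little sequence such a difference involves. A control region of 183 kb on chromosome 1, from 13045258 to 13228414, was 2 Ina regions with 130 bases between them, and its score of 3029 stood beside a sum of 3030. The highest-scoring control region, on chromosome 6 from 12674752 to 12832724 with 9211 sites, was 3 Ina regions with gaps of 92 bases in all. Just before it, from 12487682 to 12668185, lay the highest-scoring Ina region, with 10052 sites, which was 3 regions in the control with gaps of 106 bases in all. Both stretches held 55.7 to 58.3 sites per kb, against 17.3 over the list. The longest Ina region, 190 kb on chromosome 1 from 73322440 to 73512380, differed more, as it closed a control gap of 3437 bases.

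Listed share in bins of 1 Mb differed little between the lists away from chromosome 9. Of 800 full bins 388 were higher under Ina, 395 lower and 17 equal, and in 475 the difference was under 1 percentage point. Of the 11 bins that differed by 5 points or more, 10 were on chromosome 9, 2 higher and 8 lower under Ina. The remaining one was on chromosome 8 from 42 to 43 Mb, with 87.0% under Ina and 81.6% in the control, the lowest of the 8 lists. Picking bins by their difference from the control favours that rank.

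The 5 bins with the lowest Ina share relative to the control were all on chromosome 9. From 9 to 10 Mb the share was 15.2% under Ina and 21.7% in the control, and the other 6 lists had 18.9% to 23.6%. From 7 to 8 Mb it was 10.2% and 16.4%, with 12.1% to 18.8% in the others, and 12 control regions were lost there while 2 were gained. From 60 to 61 Mb it was 23.1% and 29.0%, with 26.6% to 38.9% in the others, and from 39 to 40 Mb 20.1% and 26.0%, with 23.4% to 37.6%. Ina was the lowest of the 8 lists in these 4 bins, a rank that choosing bins for a low Ina share favours. In the fifth, from 30 to 31 Mb, Bolstar BABA was lower.

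Bins of chromosome 9 also varied between Ina and the other treatments. Differences in listed share had a standard deviation over its bins of 3.15 points between Ina and control. Between Ina and the other Moneyberg treatments it was 3.53 points for BABA in time window 2, 2.76 for BABA in time window 3 and 3.26 for MeJA in time window 3. On the other chromosomes it was 1.25 points between Ina and control, and 1.04 to 1.18 between Ina and the other treatments. Pairs without Ina had the larger spread on chromosome 9 as well. Between the other Moneyberg treatments and control it was 3.14 to 3.19 points there and 1.20 to 1.41 elsewhere. Among those treatments it was 2.44 to 3.34 points there and 1.08 to 1.18 elsewhere. The larger spread on chromosome 9 was thus not particular to Ina.

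The regions that no other Moneyberg list held were counted in each list, at a score of 71 or more, the highest lower limit of the 5. The Ina list had 169 such regions of 30896, or 0.547%, 68 of them on chromosome 9. The control had 167 of 31649 (0.528%), BABA in time window 3 had 178, BABA in time window 2 had 219 and MeJA in time window 3 had 223 of 30041 (0.742%). By bases, 3.46 Mb stood in the Ina list alone, within the 3.4 to 4.81 Mb of the other 4 lists. Sequence missing from the Ina list alone came to 3.14 Mb, within 2.67 to 4.19 Mb.

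The other Moneyberg comparisons use the same control list, so their values can resemble those of Ina for that reason alone and are given here side by side. BABA in time window 2 had 906 gained regions (2.91%) and 1516 lost (4.61%). BABA in time window 3 had 836 (2.69%) and 1476 (4.49%), and MeJA in time window 3 had 864 (2.88%) and 1910 (5.81%). The share of moved ends that reached outward was 57.0% and 55.4% for BABA in the earlier and the later window and 61.9% for MeJA. In Bolstar, with a control list of its own, Ina had 2127 gained regions (7.07%) and 765 lost (2.86%), so gained exceeded lost there, and 39.0% of the moved ends reached outward. The Bolstar control list starts at a score of 78 and the Bolstar Ina list at 71. Bolstar BABA, which starts at 85, had 646 gained regions (2.67%) and 1891 lost (7.07%). In all 6 comparisons the list with the lower starting score held more regions absent from the other list, and the part of the starting score in these counts was not tested beyond the minimum scores above.

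Bolstar, the second cultivar, has its own control and Ina groups and allowed the same regions to be looked up without the shared list. Gained regions touched the Bolstar Ina list in 512 of 834 cases (61.4%) and the Bolstar control list in 481 (57.7%). Lost regions touched them in 711 (49.3%) and 649 (45.0%) of 1441 cases. Since the same regions were looked up in both lists, those found in 1 of the pair show the difference: 129 gained regions were in Bolstar Ina and not in Bolstar control and 98 the reverse, and the numbers for lost regions were 177 and 115. Bolstar Ina has more regions, 30071 against 26750. No Bolstar list held any base of 186 gained and 542 lost regions, and all 3 held part of 319 and 421. These counts, and those of regions found in 1 of the pair, were not computed over all regions and so have no background. By bases Bolstar Ina held 53.9% of the gained regions and Bolstar control 52.2%, the same order as by count. For all Ina-only sequence, which adds ends and closed gaps, the order was the reverse, with 65% in Bolstar Ina and 68% in Bolstar control. Control-only sequence stood at 58.8% and 58.4%. Regions of like score were also compared, gained against those Ina regions that the control shared, with no test of the difference. At scores of 80 to 99 Bolstar Ina touched 62.2% of gained and 90.0% of the other Ina regions, Bolstar control 60.7% and 86.6%, and Bolstar BABA 54.2% and 71.3%. At 68 to 79 the shares were 51.1% and 69.4% for Bolstar Ina and 38.1% and 43.9% for Bolstar control, whereas Bolstar BABA touched more of the gained, 42.5% against 39.4%.

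Edges could be looked up in the same way. Of the 8084 moved ends the Ina position was found to the base in at least 1 of the 3 Bolstar lists in 2724 cases (33.7%), and the control position in 2600 (32.2%). Bolstar Ina had the Ina position in 1862 cases and the control position in 1803, and Bolstar control had them in 1751 and 1554. The Ina position was thus the more frequent in both, with 21.7% against 19.2% in Bolstar control and 23.0% against 22.3% in Bolstar Ina. The share over all region ends was not computed, so these rates have no background to be read against.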

How the data were processed

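Seed DNA was bisulfite sequenced in pairs of 150-base reads, aiming at 10-fold coverage, per the labels' protocols and the series text. Reads were trimmed with Trim Galore, per the submitters' processing notes. The aligner, region caller, genome build, cytosine context and method of merging replicates were not given in the sources used here. The labels list 96 libraries and the series text 90. The authors deposited 1 list per group with 6 columns and no header, and the score that they deposited for each region is a whole number, used here to describe and filter regions. Read depth is unknown.

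Each list was tied to its group by the label that names it. Regions were compared with Python 3.11.15, numpy 2.4.6, pandas 2.3.3 and scipy 1.17.1, and the sorting into classes was checked on simulated lists with known changes. At least 1 shared base counted as touching. Touching regions formed sets, classed by their numbers in each list. Chromosome length was the last listed base in any of the 8 lists. Coordinates count from 1 in the build of the lists. The only gene table at hand, for SLM_r2.1, has genes beyond the last listed base on 8 chromosomes, so no genes were assigned and no sequence is shown. The regions named were the 10 top gained and lost by score, with and without chromosome 9, and the 5 largest splits, merges, end moves and bin changes, from which examples are given. The comparison, rule and alternatives were chosen with earlier results of these data known.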

Additional observations from a re-analysis of the deposited data

How the results depend on the processing

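The values that differed most under alternative settings are given here, and no cause was tested unless the setting itself removes regions. The other counts of gained, lost, split and merged regions stayed within 1.5 times the reported ones. Gained regions numbered 457 without chromosome 9, 481 without it and with scores of 68 or more, and 3354 under reciprocal overlap of 50%. Lost regions numbered 682 at scores of 85 or more, 939 without chromosome 9, 717 without it and with 68 or more, and 4952 under reciprocal overlap of 50%. At 85 or more there were 975 gained regions, so that gained exceeded lost there; lost exceeded gained under the other settings listed here and under 10% coverage of the region. The Jaccard index, 0.935 over all regions, was 0.937 at 68 or more, 0.930 at 85 or more, 0.881 at or above the median score of each list, 0.953 without chromosome 9, 0.955 without it and with 68 or more, 0.937 with regions 1000 bases or less apart joined, and 0.938 without the first and last 5 Mb. Splits numbered 534 at or above the median score and 630 with regions joined, and merges 881 and 896. With ends of 10 Mb in place of 5 Mb, 23.1% in place of 14.4% of gained and 32.3% in place of 19.2% of lost regions lay in chromosome ends, which hold 22.6% and 22.8% of the Ina and control lists at 10 Mb and 9.31% and 9.49% at 5 Mb. Over all 12 chromosomes the gained share thus exceeded that of all Ina regions at 5 Mb and was close to it at 10 Mb. Without chromosome 9, the first 5 Mb held 13.3% of gained regions and the last 5 Mb 10.9%. Of all 29175 Ina regions there, 1670 and 1004 lay in these zones. Lost regions had 16.2% and 10.1%, against 1810 and 1052 of 30604 control regions. The share at 10 Mb was not computed without chromosome 9. No paired analysis was possible because each group is 1 pooled list, and no replicate could be left out. Depth is unknown, so how far it limits small regions could not be assessed.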
